A study of Rattus norvegicus with 9 samples.

Results

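The 10 rat genes of the secretory route that collagen takes, described below, were among 14378 genes that the arrays read by a probe set naming 1 gene. They were Tmed3, Tmed2, Tmed9 and Tmed10, and the collagen processing genes P4ha1, P4ha2, Plod1, Plod2, Serpinh1 and Pcolce. The genes were chosen by function around Tmed3, which was selected on its measured difference between CCl4 and vehicle livers. The values of that comparison are therefore a description: no p of the 10 genes is given for it, and nothing is read from counts of calls there. A gene was read by its probe set, a group of short oligonucleotides, with the highest mean signal. The 10 genes had 14 probe sets, 9 genes were called present on all 9 arrays and Pcolce on 8.

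The livers came from male Sprague–Dawley rats, 3 rats and 3 arrays in each group, and the ages were not given. The vehicle group received no CCl4. The CCl4 group was injected intraperitoneally with carbon tetrachloride, a hepatotoxin that causes fibrosis, for 8 weeks. The CCl4+Rot group received the same CCl4 course, and from 2 weeks after its start rottlerin, a plant compound that opens BK potassium channels and has other targets, at 2.5 mg/kg. All tissue was whole frozen liver, in which more cells of a type and more RNA per cell cannot be told apart. The labels number the rats 3, 4 and 5 (vehicle), 1, 2 and 3 (CCl4), and 4, 5 and 6 (CCl4+Rot), and a number shared by groups stands for different animals.

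Fibrillar procollagen is made in the endoplasmic reticulum (ER), where prolyl hydroxylases (P4ha1, P4ha2) and lysyl hydroxylases (Plod1, Plod2) modify its chains. The chaperone HSP47, the product of Serpinh1, holds the folded triple helix until it leaves the ER. Pcolce, a secreted glycoprotein, enhances removal of the C-terminal propeptide outside the cell. Tmed proteins, also called p24 proteins, span the membranes of vesicles between ER and Golgi and act as receptors for secreted cargo. In scarred liver, activated stellate cells and other myofibroblasts are the main source of fibrillar collagen.

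The 250 bases before the annotated start of 4 genes are shown, to set the Tmed promoters beside those of collagen processing genes with higher signals in the fibrotic livers. Bases are from RefSeq (GRCr8), 5′ to 3′ on the strand of the gene. Capitals mark CCAAT and ACGTG on either strand. All 10 genes had an entry in the promoter table. The Tmed3 window lay at chr8:99129278-99129527 (minus strand), the Tmed2 window at chr12:37722607-37722856 (minus strand), the Plod2 window at chr8:101964068-101964317 (plus strand) and the Serpinh1 window at chr1:163062977-163063226 (minus strand). The annotated gene reached 376 bases further upstream than the start used for Tmed3 and 201 bases further for Serpinh1. The Tmed3 window therefore lay wholly, and the Serpinh1 window partly, inside the gene.
Tmed3: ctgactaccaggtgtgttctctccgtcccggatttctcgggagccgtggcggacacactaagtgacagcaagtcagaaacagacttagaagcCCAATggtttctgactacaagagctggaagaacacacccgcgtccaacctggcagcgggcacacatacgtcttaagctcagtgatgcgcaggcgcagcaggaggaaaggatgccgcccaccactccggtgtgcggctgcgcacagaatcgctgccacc
Tmed2: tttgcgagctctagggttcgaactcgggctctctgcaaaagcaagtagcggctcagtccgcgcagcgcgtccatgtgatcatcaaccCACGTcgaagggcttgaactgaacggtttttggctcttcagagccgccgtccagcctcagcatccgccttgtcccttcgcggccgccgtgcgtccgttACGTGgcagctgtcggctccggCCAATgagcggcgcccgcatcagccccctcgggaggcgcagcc
Plod2: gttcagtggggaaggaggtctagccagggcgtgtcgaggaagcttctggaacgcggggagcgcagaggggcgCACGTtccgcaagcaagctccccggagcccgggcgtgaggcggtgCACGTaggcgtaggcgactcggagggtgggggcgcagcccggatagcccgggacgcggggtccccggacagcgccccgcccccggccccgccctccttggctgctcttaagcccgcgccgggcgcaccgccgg
Serpinh1: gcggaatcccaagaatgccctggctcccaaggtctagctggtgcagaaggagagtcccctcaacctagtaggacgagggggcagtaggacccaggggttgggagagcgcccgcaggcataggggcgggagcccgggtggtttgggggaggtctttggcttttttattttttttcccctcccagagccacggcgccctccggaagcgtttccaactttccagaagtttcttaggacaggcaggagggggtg

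CCAAT was found on the sense strand of all 4 Tmed windows, at 158 bases before the start in Tmed3, 43 in Tmed2, 170 and 143 in Tmed9 and 110 in Tmed10. It was found in none of the 6 collagen processing windows. The annotated P4ha1 gene reached 60350 bases further upstream than the start used, so the P4ha1 window, like that of Tmed3, lay inside the gene. Of all 33469 rat promoter windows of the same length, 34.02% held CCAAT on either strand, and of the 6 windows of other Tmed genes 3 did. ACGTG, searched on both strands, was found in 5 of the 10 windows (Tmed2, Tmed9, Tmed10, P4ha2 and Plod2) and in 16.6% of all windows. A single CACGTG, as in Tmed10, holds ACGTG on both strands. GGGCGG was found in 7 of the 10 windows and in 30.5% of all, and TATAAA in 0 of 10 and in 12.9% of all. The median GC content of the 10 windows was 62.4%, from 48.8% in Tmed10 to 74.8% in Plod2, against 51.2% over all windows.

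On the array of CCl4 rat 3, 12714 probe sets were called present, against 15550 to 16849 on the other 8 arrays, and its median log2 signal was 7.81 against 6.79 to 7.01. Over the 11231 probe sets present on every array its median was 9.53, within the 9.51 to 9.58 of the others. Counts over the genes, and the changes it moved most, are given with and without it. Hepatocyte markers (albumin and 4 others) were present on all 9 arrays.

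Tmed3 (Entrez Gene 300888, chromosome 8) had the largest difference among the 10 genes between CCl4 and vehicle livers. Its log2 signal was 8.80, 8.25 and 8.96 in vehicle rats 3, 4 and 5, and 11.10, 10.68 and 10.49 in CCl4 rats 1, 2 and 3. It was 10.04, 10.22 and 10.04 in CCl4+Rot rats 4, 5 and 6. All 3 groups were apart, with CCl4 highest, CCl4+Rot between and vehicle lowest. The means were 8.67 ± 0.374, 10.76 ± 0.309 and 10.10 ± 0.102 (SD, n = 3), so that the CCl4 mean was 4.25-fold above vehicle.

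In CCl4+Rot livers Tmed3 was 1.58-fold lower than in CCl4 livers, a log2 change of -0.66 (95% confidence interval -1.23 to -0.08, SE 0.247). Every CCl4+Rot rat was below every CCl4 rat, but with each array centred on its median the groups overlapped and the log2 change was -0.41. Centring lowered the array of CCl4 rat 3 most, as its median was the highest. Without that array and without centring, the log2 change was -0.79 and the groups did not overlap. On all 9 arrays as deposited, limma, the moderated linear model fitted to all 31042 probe sets, gave a p of 0.0303. The Benjamini-Hochberg adjusted p was 0.747, so the difference did not pass the threshold of 0.05. The adjusted p lay between 0.362 and 0.979 under the alternatives. Tmed3 was selected for its high signal in these same CCl4 rats, which favours a lower value in any other group, so the interval and the p are not independent of the choice. Against vehicle, Tmed3 was 2.70-fold higher in CCl4+Rot livers (log2 change 1.43, SE 0.247, limma adjusted p = 0.191).

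The other 3 Tmed genes differed little between groups. Tmed2 (65165, chromosome 12) was 12.89, 12.93 and 13.10 in vehicle, 13.37, 13.12 and 12.92 in CCl4, and 12.88, 12.95 and 13.02 in CCl4+Rot livers, as log2 signals. Tmed9 (361207, chromosome 17) was 12.37, 12.40 and 12.51 in vehicle, 12.95, 12.68 and 12.39 in CCl4, and 12.29, 12.47 and 12.41 in CCl4+Rot livers. Tmed10 (84599, chromosome 6) was 11.80, 11.85 and 11.97 in vehicle, 11.89, 12.15 and 11.69 in CCl4, and 11.80, 11.81 and 11.77 in CCl4+Rot livers. For each of these 3 genes the groups overlapped, and the widest spread was in CCl4 livers. Tmed2, Tmed9 and Tmed10 form complexes with one another and move between ER and Golgi.

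The log2 difference of CCl4 from vehicle livers was 0.16 for Tmed2, 0.24 for Tmed9 and 0.04 for Tmed10. That of CCl4+Rot from CCl4 livers was -0.19 (95% confidence interval -0.59 to 0.21), -0.28 (-0.71 to 0.14) and -0.12 (-0.51 to 0.27), with limma adjusted p of 0.807, 0.769 and 0.872. That of CCl4+Rot from vehicle livers was -0.03, -0.04 and -0.08. A second probe set of Tmed2 gave differences of 0.15, -0.17 and -0.03 in these comparisons. A second probe set of Tmed9 gave 0.44, with every CCl4 rat above every vehicle rat, -0.37 and 0.07. Of these 4 Tmed genes, only Tmed3 differed by more than 1.5-fold in any comparison.

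**Figure D1:**
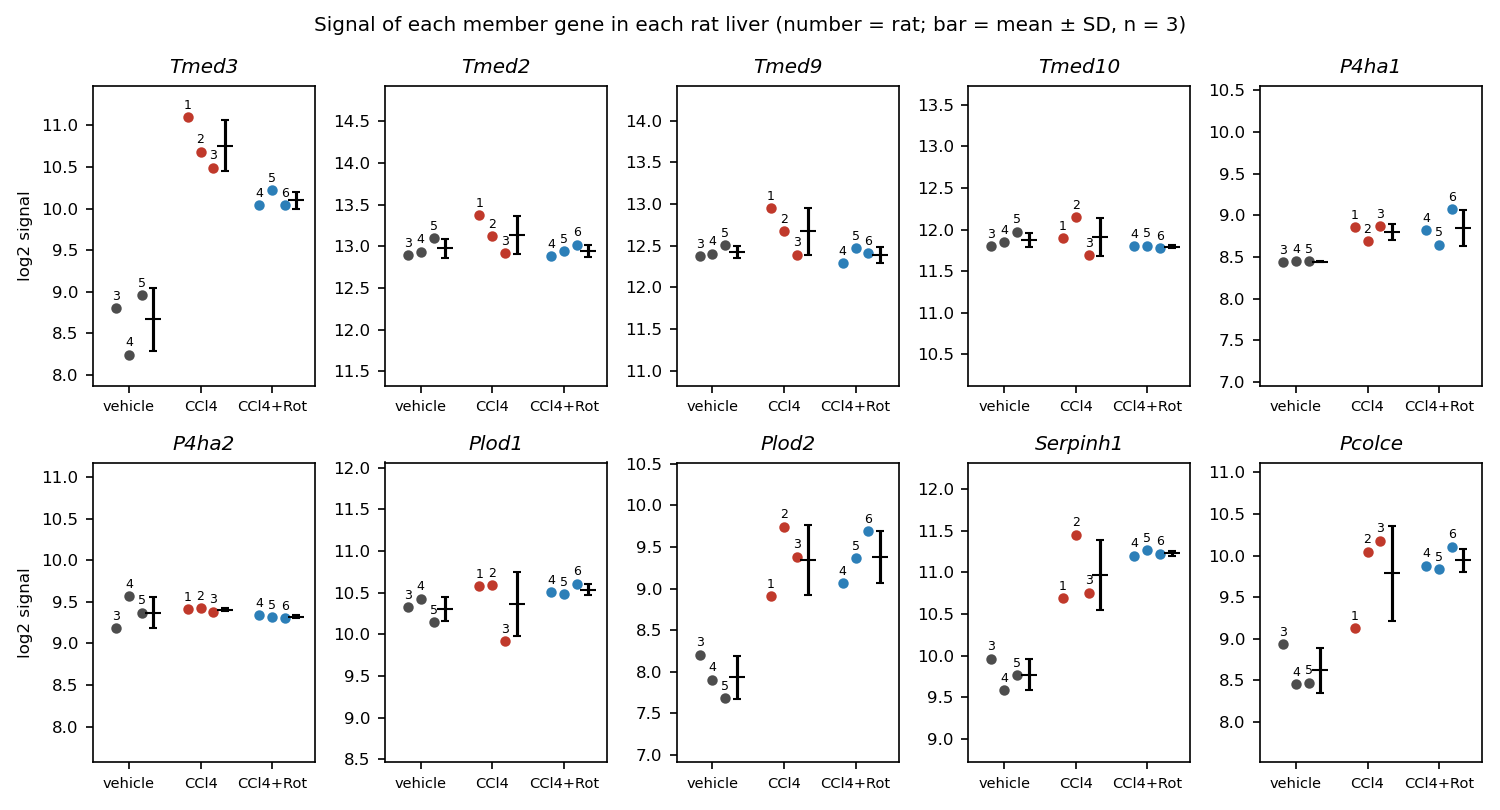
Log2 signal (y axis, each panel with its own origin and the same span) of the 10 genes in each liver, by group (x axis). Points are rats with their numbers, and bars are the mean ± SD of 3 rats. Tmed3 lay at 8.25 to 8.96 in vehicle, 10.49 to 11.10 in CCl4 and 10.04 to 10.22 in CCl4+Rot livers, while Tmed2, Tmed9 and Tmed10 overlapped.

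Of the enzymes that hydroxylate collagen, Plod2 showed the largest difference. Plod2, lysyl hydroxylase 2, modifies lysines of the collagen telopeptides and thereby sets the type of cross-link. Plod2 (300901, chromosome 8) was 8.21, 7.91 and 7.68 in vehicle, 8.91, 9.74 and 9.38 in CCl4, and 9.07, 9.37 and 9.69 in CCl4+Rot livers. Both CCl4 groups lay above vehicle and overlapped each other. The CCl4 mean was 2.66-fold above vehicle (log2 change 1.41). The CCl4+Rot mean was 2.72-fold above vehicle (log2 change 1.44, SE 0.279, limma adjusted p = 0.192).

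Plod1 (116552, chromosome 5), lysyl hydroxylase 1, which acts mainly on the helical part of the chain, was 10.33, 10.43 and 10.15 in vehicle livers. It was 10.58, 10.59 and 9.92 in CCl4 and 10.51, 10.49 and 10.61 in CCl4+Rot livers. CCl4 rat 3 was the lowest of all 9, and the log2 difference of CCl4 from vehicle was 0.06 with it and 0.29 without it. The CCl4+Rot rats were all above vehicle, by a log2 change of 0.23 (SE 0.220, limma adjusted p = 0.891).

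P4ha1 and P4ha2 encode catalytic subunits of prolyl 4-hydroxylase, which stabilises the triple helix. P4ha1 (64475, chromosome 20) was 8.43, 8.45 and 8.45 in vehicle, 8.86, 8.69 and 8.87 in CCl4, and 8.82, 8.65 and 9.07 in CCl4+Rot livers. Both CCl4 groups lay above vehicle, by log2 differences of 0.36 and 0.40 (the latter with SE 0.165 and limma adjusted p = 0.572). P4ha2 (360526, chromosome 10) was 9.18, 9.56 and 9.37 in vehicle, 9.41, 9.42 and 9.38 in CCl4, and 9.34, 9.32 and 9.30 in CCl4+Rot livers. CCl4+Rot and CCl4 rats did not overlap for P4ha2, but the log2 change was -0.09 (limma adjusted p = 0.900) and both lay within the range of the vehicle rats. A second P4ha2 probe set was not called present on any of the 9 arrays, so no fold is printed for it.

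Serpinh1 (29345, chromosome 1) was 9.96, 9.59 and 9.77 in vehicle, 10.69, 11.45 and 10.76 in CCl4, and 11.20, 11.26 and 11.23 in CCl4+Rot livers. Every rat given CCl4 was above every vehicle rat, and the CCl4+Rot rats lay within the range of the CCl4 rats. The CCl4 mean was 2.28-fold above vehicle, and the CCl4+Rot mean 2.74-fold (log2 change 1.46, SE 0.235, limma adjusted p = 0.167). A second, dim probe set was present on 3 of 3 vehicle, 1 of 3 CCl4 and 0 of 3 CCl4+Rot arrays, and no fold is printed for it.

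Pcolce (29569, chromosome 12) was 8.93, 8.46 and 8.47 in vehicle, 9.13, 10.05 and 10.18 in CCl4, and 9.88, 9.84 and 10.10 in CCl4+Rot livers. Both groups given CCl4 lay above vehicle, and CCl4 rat 1 was the one closest to it. The CCl4 mean was 2.24-fold above vehicle, and the CCl4+Rot mean was higher by a log2 change of 1.32 (SE 0.302, limma adjusted p = 0.253).

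None of the 6 collagen processing genes differed between CCl4+Rot and CCl4 livers by more than the threshold. The log2 change was 0.03 for Plod2 (95% confidence interval -0.62 to 0.68), 0.27 for Serpinh1 (-0.28 to 0.81) and 0.16 for Pcolce (-0.55 to 0.86). It was 0.04 for P4ha1 (-0.34 to 0.43) and 0.17 for Plod1 (-0.34 to 0.68). The limma adjusted p of these 5 genes lay between 0.804 and 0.983, and the intervals of Plod1, Plod2, Serpinh1 and Pcolce reach changes of more than 1.5-fold.

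**Figure D2:**
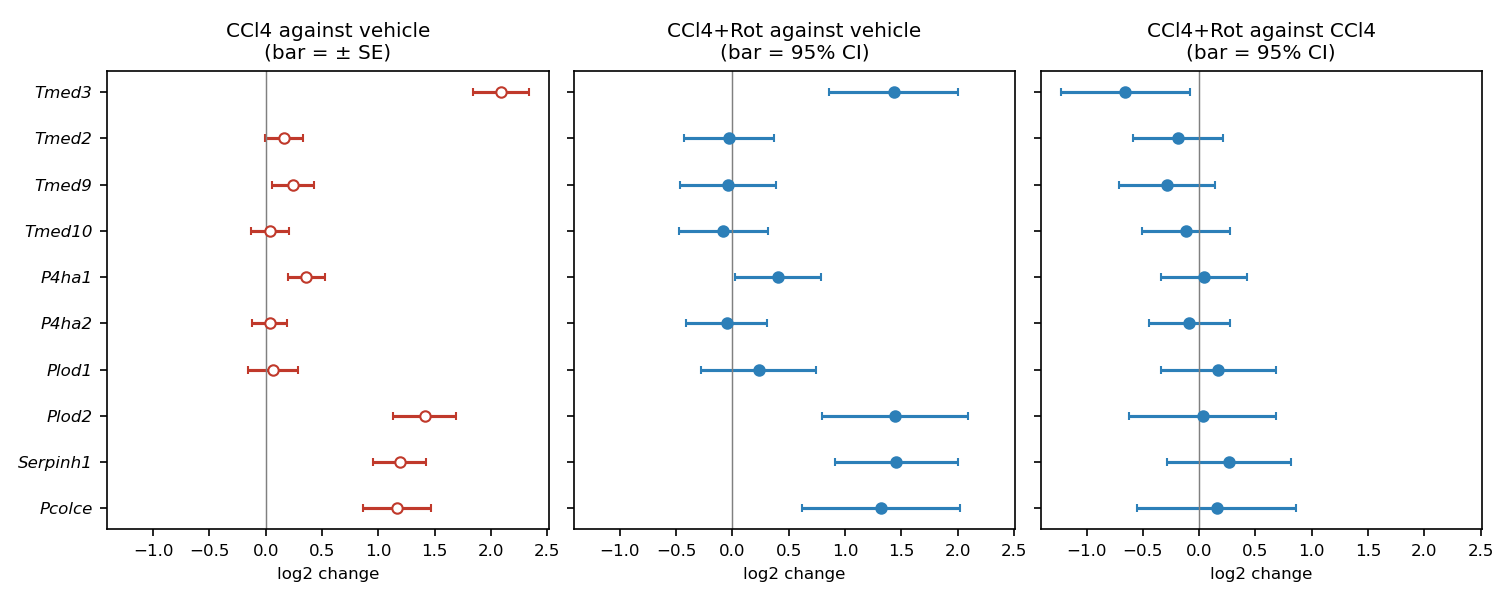
Log2 change (x axis) of the 10 genes (y axis) in the 3 comparisons. Open points with ± SE show CCl4 against vehicle, the comparison on which Tmed3 was selected, and filled points with 95% confidence intervals the others. In CCl4+Rot against CCl4 the Tmed3 interval ends at -0.08, and those of the other 9 genes include 0.

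All 10 genes had a higher mean in CCl4 than in vehicle livers, as had 19614 of the 31042 probe sets tested. The log2 difference was only 0.04 for P4ha2, 0.04 for Tmed10 and 0.06 for Plod1, and its sign changed when some single arrays were left out. The median log2 difference of the 10 genes was 0.30, against 0.18 over all probe sets tested and 0.04 over the 17545 present on at least 3 arrays. The rats did not overlap for 5 of the 10 (Tmed3, P4ha1, Plod2, Serpinh1 and Pcolce), all higher in CCl4; over all probe sets 11.1% were higher and 7.14% lower in this way. In CCl4+Rot against vehicle livers 6 of the 10 genes were higher without overlap (Tmed3, P4ha1, Plod1, Plod2, Serpinh1 and Pcolce) and 0 lower, with 11.9% and 9.15% over all probe sets. Their median log2 difference was 0.32 against 0.01 over all probe sets. In CCl4+Rot against CCl4 livers 2 genes (Tmed3 and P4ha2) were lower without overlap and 0 higher, with 6.88% and 4.73% over all probe sets. Of the probe sets present on at least 3 arrays, 5.31% were lower and 6.87% higher in this way. The median of the 10 genes was -0.03, against -0.12 over all probe sets and -0.01 over those present on at least 3 arrays. It was -0.24 for the 4 Tmed genes and 0.10 for the 6 collagen processing genes. The comparisons share arrays, so they do not bear on one another independently.

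Array CCl4 rat 3 bore on these values. Without it, the median over all probe sets was 0.01 in place of 0.18 for CCl4 against vehicle and 0.01 in place of -0.12 for CCl4+Rot against CCl4, and that of the 10 genes was 0.36 and -0.08. The CCl4 difference from vehicle was then 0.27 for Tmed2, 0.38 for Tmed9 and 0.15 for Tmed10, and the CCl4+Rot difference from CCl4 was -0.30, -0.42 and -0.23. With all 9 arrays centred on their medians, the median of the 10 genes in CCl4 against vehicle was -0.06, with Tmed2, Tmed9, Tmed10, P4ha2 and Plod1 below 0. Without rat 3 and without centring, 8 genes were higher in CCl4 than in vehicle livers without overlap, with Tmed2, Tmed9 and Plod1 added, and over all probe sets 15.2% were higher. Without rat 3, 5 genes were lower in CCl4+Rot than in CCl4 livers without overlap, namely the 4 Tmed genes and P4ha2, and over all probe sets 10.8% were lower.

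No gene of the 10 was called at a limma adjusted p below 0.05 and at least 1.5-fold. Of all probe sets, 0% were called for CCl4 against vehicle, 0.00322% for CCl4+Rot against CCl4 and 0.0258% for CCl4+Rot against vehicle. Before adjustment, 1 of the 10 genes (Tmed3) had p below 0.05 in CCl4+Rot against CCl4 and 5 (Tmed3, Plod2, Serpinh1, Pcolce and P4ha1) in CCl4+Rot against vehicle, beside 6.63% and 8.31% of all probe sets. A limma fit with a robust spread that follows the signal called 4 of the 10 genes in CCl4+Rot against vehicle, where it called 0.776% of all probe sets. Their adjusted p was 0.005 for Serpinh1, 0.00704 for Tmed3, 0.0136 for Plod2 and 0.0282 for Pcolce, and all 4 were higher in 3 of 3 CCl4+Rot rats than in any vehicle rat. Over all alternatives their adjusted p ran from 0.005 to 0.537, 0.00704 to 0.584, 0.0136 to 0.612 and 0.0259 to 0.717 in the same order. The 10 genes were chosen around Tmed3 with the difference between CCl4 livers and those of these same vehicle rats in view. The values of these 4 genes, Tmed3 above all, are therefore not independent evidence. The robust fit called 0 of the 10 in CCl4+Rot against CCl4, where it called 0.00322% of all probe sets. In CCl4 against vehicle, the comparison on which Tmed3 was selected, it called 4 of the 10 and 1.12% of all probe sets, a count that is no test of these genes.

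The order of the 3 CCl4 rats differed between genes. Rat 1 had the highest signal of the 3 for Tmed3, Tmed2 and Tmed9, and the lowest for Plod2, Serpinh1 and Pcolce. Rat 3 had the lowest signal for 6 genes, the 4 Tmed genes, P4ha2 and Plod1, and Tmed10, P4ha2 and Plod1 shared the order rat 2, rat 1, rat 3. In rat 3 the summed hepatocyte markers were also lowest, at a log2 of 16.72 against 17.08 to 17.34 in the other 8 rats. With 3 rats this is a description of these livers.

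**Figure D3:**
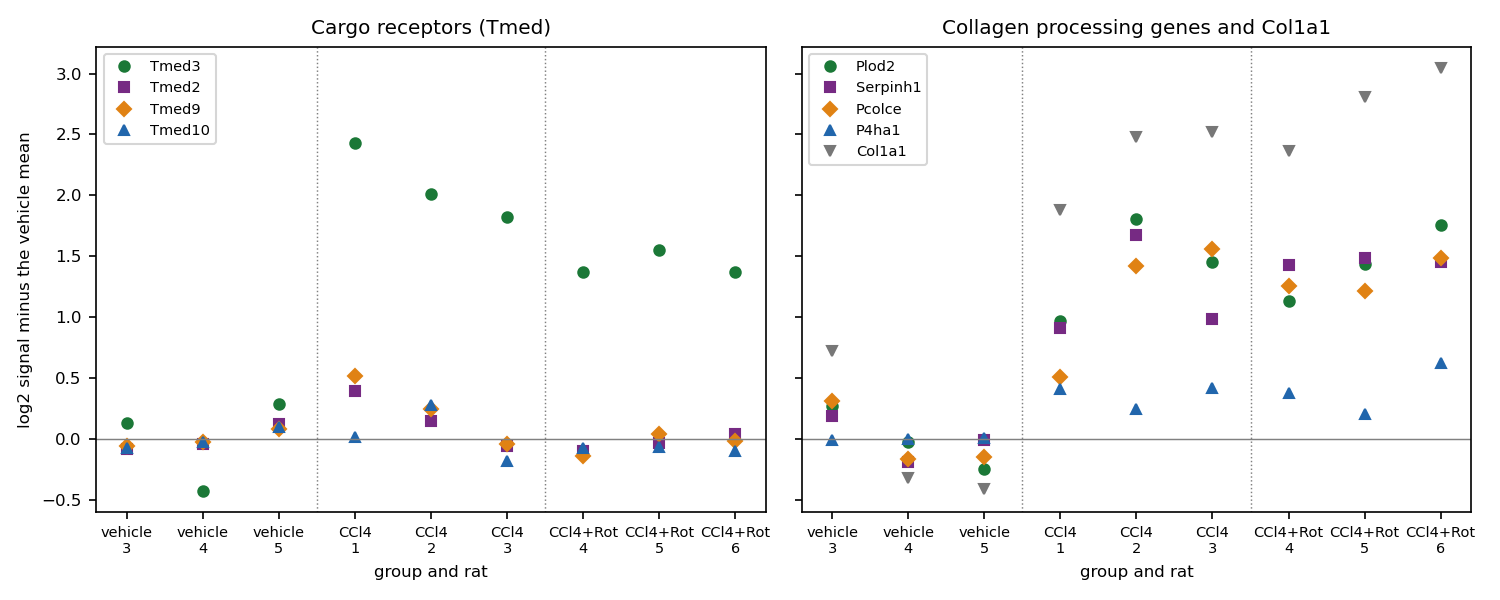
Log2 signal minus the mean of the vehicle rats (y axis) in each rat (x axis), for the Tmed genes (left) and for Plod2, Serpinh1, Pcolce, P4ha1 and the collagen gene Col1a1 (right). Each symbol is 1 gene in 1 rat. Among CCl4 rats, rat 1 is highest for Tmed3, Tmed2 and Tmed9 and lowest for Plod2, Serpinh1, Pcolce and Col1a1.

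The cargo itself, fibrillar collagen, had higher signals in both groups given CCl4. Col1a1, the alpha 1 chain of type I collagen, was 8.81, 7.77 and 7.69 in vehicle, 9.97, 10.57 and 10.61 in CCl4, and 10.46, 10.90 and 11.13 in CCl4+Rot livers. The 5 collagens listed (Col1a1, Col1a2, Col3a1, Col5a1 and Col5a2) were all higher without overlap in CCl4 and in CCl4+Rot than in vehicle livers. Of all probe sets, 11.1% and 11.9% were higher in this way. The CCl4+Rot log2 difference from vehicle was 2.74 for Col1a1, 2.39 for Col1a2 and 1.68 for Col3a1 (limma adjusted p of 0.110, 0.192 and 0.191). The robust limma fit described above called all 5 in this comparison, with adjusted p from 0.00208 for Col1a1 to 0.0322 for Col1a2, and without CCl4 rat 3 all but Col1a2. From CCl4 it was 0.45, 0.58 and 0.51 (adjusted p of 0.793, 0.789 and 0.765), and none of the 5 collagens was lower in CCl4+Rot than in CCl4 livers on average.

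A further 6 lists held 85 genes of the secretory route, of which 72 were measured and 67 present on at least 3 arrays. None was called by limma in any comparison, while before adjustment p was below 0.05 for 9 genes in CCl4 against vehicle, 3 in CCl4+Rot against CCl4 and 7 in CCl4+Rot against vehicle, beside 12.4%, 6.63% and 8.31% of all probe sets. In CCl4 against vehicle, 20 of the 72 were higher and 3 lower without overlap, beside the 11.1% and 7.14% given above. In CCl4+Rot against vehicle they were 18 and 10, beside 11.9% and 9.15%, and in CCl4+Rot against CCl4 3 and 8, beside 4.73% and 6.88%. The median log2 differences were 0.09, 0.04 and -0.07.

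Of the 7 other Tmed genes listed, 5 were measured and 3 were present on at least 3 arrays. Their log2 differences between CCl4 and vehicle livers were -0.04 for Tmed4, -0.55 for Tmed5 and 0.15 for Tmed7, against 2.09 for Tmed3. Tmed5 was also lower without overlap in CCl4+Rot than in vehicle livers, by a log2 change of -0.79 (limma adjusted p = 0.522). Tmed6 was called present on no array.

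Among 12 ER-Golgi cargo receptors, such as Lman1 and Surf4, Wls differed most. Wls carries Wnt proteins to the cell surface. It was 8.11, 7.64 and 7.41 in vehicle, 8.38, 9.43 and 8.40 in CCl4, and 8.73, 9.32 and 9.51 in CCl4+Rot livers, all CCl4 and CCl4+Rot rats being above vehicle. Its log2 difference of CCl4+Rot from vehicle was 1.46 (limma adjusted p = 0.304), and the robust fit called it (adjusted p = 0.0472), the only one of the 72 genes it called there. The median of the 12 was 0.06 in CCl4 and 0.01 in CCl4+Rot against vehicle.

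The COPII coat forms vesicles that leave the ER, and the COPI coat returns vesicles to it. The median log2 differences of CCl4 from vehicle were 0.03 over 16 COPII genes and 0.11 over 18 COPI genes, and of CCl4+Rot from CCl4 -0.09 and 0.02. Copz2, a COPI subunit, was 8.50, 8.31 and 8.31 in vehicle, 9.00, 9.84 and 8.80 in CCl4, and 9.36, 9.23 and 9.23 in CCl4+Rot livers, so the groups given CCl4 were above vehicle. Kdelr3, a receptor that returns chaperones to the ER, was called present on 0 of 3 vehicle, 1 of 3 CCl4 and 3 of 3 CCl4+Rot arrays. The ratio of its mean signal to that of vehicle livers was 2.16 in CCl4 and 2.18 in CCl4+Rot livers. Such ratios are not measured folds, since no vehicle signal, and few CCl4 signals, were called present. Raising vehicle signals to at least the dimmest present probe set of their array left the ratios as they were.

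Of 20 other collagen modification enzymes and chaperones, 5 were higher and 0 lower without overlap in CCl4 than in vehicle livers, beside 11.1% and 7.14% of all probe sets. Fkbp10, which helps procollagen fold, was called present on 0 of 3 vehicle, 1 of 3 CCl4 and 2 of 3 CCl4+Rot arrays. The ratio of its mean signal to that of vehicle livers was 2.97 in CCl4 and 3.29 in CCl4+Rot livers (limma adjusted p = 0.204 for the latter). These ratios too are not measured folds. P3h3, of the prolyl 3-hydroxylase family, was present on 0 of 3 vehicle and 2 of 3 CCl4+Rot arrays. Its ratio of CCl4+Rot to vehicle signal, again not a measured fold, was 2.22 (limma adjusted p = 0.489). CCl4+Rot differed from CCl4 livers by a log2 change of 0.59 for P3h3 (adjusted p = 0.778). Fkbp7, an ER prolyl isomerase, differed between CCl4+Rot and CCl4 by -0.48 (adjusted p = 0.774). Bmp1, the proteinase that removes the C-propeptide and that Pcolce enhances, was the only one measured of the 7 proteinases and enhancers listed. Bmp1 was 9.94, 9.38 and 9.32 in vehicle, 9.02, 9.79 and 9.50 in CCl4, and 10.25, 9.98 and 10.08 in CCl4+Rot livers. It was higher without overlap in CCl4+Rot than in CCl4 livers, by 0.67 (limma adjusted p = 0.747).

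**Figure D4:**
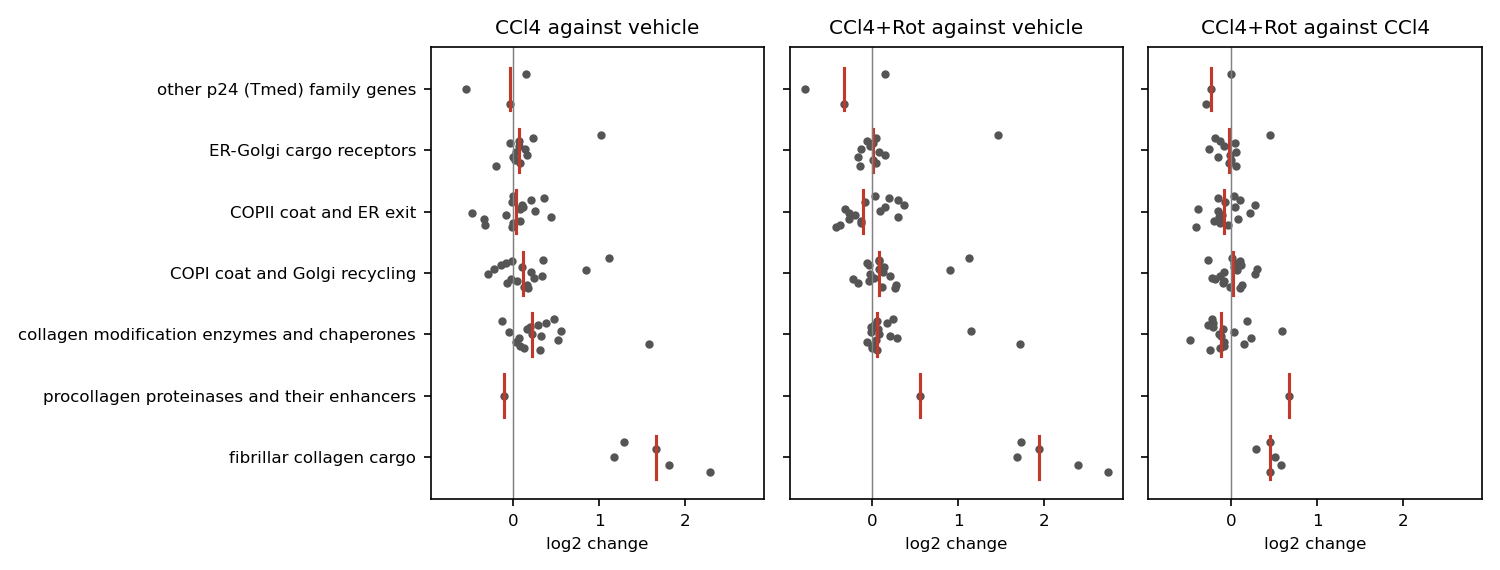
Log2 change (x axis) of the secretory route genes present on at least 3 arrays, by list (y axis), in the 3 comparisons. Points are genes and red lines the medians of the genes plotted. The collagens lie at 1.17 to 2.29 for CCl4 against vehicle, and most transport genes lie close to 0.

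The 6 stellate cell and myofibroblast markers were all measured, and their summed log2 signal was 11.75 to 12.02 in vehicle, 11.69 to 12.57 in CCl4 and 12.23 to 12.60 in CCl4+Rot livers. CCl4 rat 1, the lowest CCl4 rat for Plod2, Serpinh1 and Pcolce, had the lowest sum of all 9, a sum to which Reln and Lrat gave most of the signal. In that rat Des, at 7.66, and Pdgfrb, at 7.63, were above every vehicle rat. Acta2, at 6.64, Tagln, at 7.69, and Lrat, at 9.78, lay there within the range of the vehicle rats. Reln, at 10.75, was below every vehicle rat. Of the 6 markers, 2 were higher without overlap in CCl4 and 4 in CCl4+Rot than in vehicle livers, beside 11.1% and 11.9% of all probe sets. The 4 cholangiocyte markers measured, with Krt7 present on no array, summed to 9.78 to 10.03 in vehicle, 11.28 to 12.40 in CCl4 and 10.22 to 11.20 in CCl4+Rot livers. These 3 ranges do not overlap, and the differences lay mostly in Spp1 (osteopontin), which was 5.92 to 6.42 and absent in vehicle, 9.90 to 12.11 in CCl4 and 8.11 to 10.46 in CCl4+Rot livers. Epcam was also higher without overlap in CCl4 than in vehicle livers, at 9.74 to 10.41 against 9.33 to 9.68. Spp1 was highest in CCl4 rat 1, as was Tmed3, but Krt19 was lowest of all 9 rats there, at 6.60, and Epcam was highest in CCl4 rat 2, at 10.41. The sums were 12.88 to 13.33, 12.74 to 13.23 and 13.33 to 13.62 for the 4 macrophage markers, 13.07 to 13.27, 12.69 to 13.17 and 13.11 to 13.25 for the 4 endothelial markers, and 9.70 to 10.47, 10.04 to 10.82 and 10.60 to 11.28 for the 3 lymphocyte markers, in the same order of groups. Clec4f gave most of the macrophage sum, at 12.50 to 12.85, 12.07 to 12.56 and 12.69 to 12.88. Cd68 was 9.86 to 10.63, 10.52 to 11.10 and 10.91 to 11.12. Of the 4, 2 had higher and 2 lower means in CCl4 than in vehicle livers. Adgre1 was 11.68 in CCl4+Rot rat 6, and 9.55 and 9.52 in rats 4 and 5. Ptprc gave most of the lymphocyte sum. Cd3e had a lower mean in CCl4+Rot (4.05 to 6.07) than in CCl4 livers (5.22 to 8.39), the other 2 a higher one. The part of these cells in the results was not tested.

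The genes most like Tmed3 over the 9 arrays were found by the root mean square difference of log2 signals, each gene centred on its own mean. Among 9812 genes, the nearest were Csrp2 at 0.252, Timp1 at 0.315, Lgals3 at 0.319, Cd200 at 0.373 and Rprm at 0.374, against a median of 0.931. Csrp2 encodes a LIM-domain protein, Timp1 an inhibitor of matrix metalloproteinases, and Lgals3 galectin-3. The log2 differences of Csrp2 were 1.73 for CCl4 against vehicle and -0.70 for CCl4+Rot against CCl4, beside 2.09 and -0.66 for Tmed3. Those of Timp1 were 1.60 and -0.43, and those of Lgals3 1.93 and -0.27. Since Tmed3 was selected on the first of these differences, the likeness is a description.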

How the data were processed

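Biotinylated cRNA was made from the frozen liver RNA of 9 rats, and each was hybridised to 1 Affymetrix rat array. The authors deposited, per probe set and array, a log2 signal with a call of present, marginal or absent. The submitters' processing notes name MAS5 and affy. The antilogs have a mean of 500 on every array once 2% are trimmed at each end, so arrays were scaled but not quantile normalized before deposit. The genome build is not given in the sources used here, and chromosomes are as the table lists them.

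The values were used as deposited. After 57 of 31099 probe sets (controls) were left out, 31042 entered a limma fit (version 3.58.1, R 4.3.3; 3 group means, no covariate). Calls needed a Benjamini-Hochberg adjusted p below 0.05 and 1.5-fold. Scripts were tested on simulated data. The number of arrays limits the precision.

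Members, lists and tests were chosen with earlier results of these data known. Named were the 10 members; per comparison the 4 pathway genes with the largest absolute change among those present on at least 3 arrays, and any called; Col1a1, Col1a2 and Col3a1; and the 5 genes most like Tmed3. Others named (Tmed4, Tmed5, Tmed6 and Tmed7, Tmed1, Ppib, Col5a1 and Col5a2) were chosen after their values were seen. Alternatives were quantile normalization, median centring, filters on low signal and detection, fits of only the groups compared, a robust spread (statmod 1.5.0), the methods' t-test, averaging all probe sets of a gene, the animal number as a block and each array left out. The robust fit without CCl4 replicate 3 was added after seeing the data.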

Additional observations from a re-analysis of the deposited data

How the results depend on the processing

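Tmed3, Plod2, Serpinh1 and Pcolce were higher in both groups given CCl4 than in vehicle under every alternative run. The log2 change of Tmed3 ran from 1.73 to 2.23 in CCl4 and from 1.22 to 1.58 in CCl4+Rot against vehicle, and from -0.79 to -0.41 in CCl4+Rot against CCl4. Counts of members called in CCl4 against vehicle describe the comparison on which Tmed3 was selected and test nothing. Members called, 0 in each comparison, were 1 (Tmed3) for CCl4 against vehicle and 2 for CCl4+Rot against vehicle among probe sets present on at least 3 arrays. Of those 17545 probe sets, 0.445% and 0.359% were called. Members called were 4 and 4 with the robust spread, and 3 and 4 with it when CCl4 replicate 3 was left out. Of all probe sets, that last fit called 1.01% and 1.18%. The methods' t-test without adjustment called 4, 1 and 4 for CCl4 against vehicle, CCl4+Rot against CCl4 and CCl4+Rot against vehicle, and 0 each after Benjamini-Hochberg. Pathway genes called, also 0, were 1 (Fkbp10), 1 (Bmp1) and 6 (Copz2, Kdelr3, Tmed1, P3h3, Wls and Fkbp10) with that unadjusted test, 1 (Wls) with the robust spread in CCl4+Rot against vehicle, and with it and CCl4 replicate 3 left out 1 (Ppib) in CCl4 against vehicle and 1 (Wls) in CCl4+Rot against vehicle. With the animal number as a replicate block, 0 members were called in each comparison; the numbers mark different animals, and the estimated correlation was -0.03. Leaving out 1 array in turn gave 0 members called throughout.

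Median centring moved the median of all probe sets from 0.18 to -0.18 in CCl4 against vehicle, from -0.12 to 0.13 in CCl4+Rot against CCl4 and from 0.01 to -0.10 in CCl4+Rot against vehicle. The median change of the members was then -0.057 in CCl4 against vehicle and 0.22 in CCl4+Rot against CCl4, and 3 and 0 members did not overlap between groups. In CCl4 against vehicle Tmed2 was then -0.20, Tmed9 -0.12, Tmed10 -0.32, P4ha2 -0.32 and Plod1 -0.30, and in CCl4+Rot against CCl4 Tmed2 was 0.057, Tmed10 0.13 and P4ha2 0.16. With the mean of all probe sets, P4ha2 was -0.52 in CCl4 against vehicle and 0.43 in CCl4+Rot against CCl4, where the median of the members was 0.019, and Tmed9 was 0.015 in CCl4+Rot against vehicle. Quantile normalization gave 4 members not overlapping in CCl4+Rot against CCl4, and in CCl4+Rot against vehicle 0.028 for Tmed2 and 0.0034 for Tmed9. No share over all probe sets is given for the counts under median centring and quantile normalization, and nothing is read from them. Leaving out 1 array gave 5 to 8 members not overlapping in CCl4 against vehicle, all higher, beside 14.5% to 24.5% of all probe sets. In CCl4+Rot against CCl4 it gave 2 to 5 members, beside 10.7% to 18.8% of all probe sets lower and 7.11% to 12% higher. It also gave, in CCl4 against vehicle, -0.060 to 0.13 for P4ha2, -0.052 to 0.29 for Plod1 and -0.080 to 0.15 for Tmed10. In CCl4+Rot against CCl4 it gave -0.19 to 0.23 for Plod2, -0.17 to 0.35 for Pcolce, -0.23 to 0.00029 for Tmed10, -0.069 to 0.14 for P4ha1 and -0.054 to 0.28 for Plod1. In CCl4+Rot against vehicle it gave -0.15 to 0.044 for P4ha2, -0.069 to 0.035 for Tmed2 and -0.079 to 0.011 for Tmed9. The cause was not tested. The fit with the detection filter called 78, 0 and 63 of the 17545 probe sets kept. That with the filter on low signal called 4, 0 and 22 of 21729. Of all 31042 probe sets, the robust spread called 348, 1 and 241, against 0, 1 and 8 in the main fit. The unadjusted t-test called 1774, 851 and 2126 of them (5.71%, 2.74% and 6.85%).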
